A study of Homo sapiens with 22 samples.

Results

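The genes described are 10 regulators of the step from G1 into S phase, 10 of the 37908 genes in the count table, taken by name and followed across all 8 groups of the experiment. They are the D-type cyclins CCND1 and CCND3, the E-type cyclins CCNE1 and CCNE2, the cyclin-dependent kinases CDK2, CDK4 and CDK6, the CIP/KIP inhibitors CDKN1A (p21) and CDKN1B (p27), and the INK4 inhibitor CDKN2C (p18). All 10 had at least 10 counts in each of the 22 libraries, and all 10 entered every test, so none was lost to the filter on low counts.

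All libraries came from H1299, a cell line of human non-small cell lung cancer, engineered so that doxycycline (DOX) switches on an shRNA to BRCA2. BRCA2-deficient cells had 2 µg/mL DOX during 3 days, and BRCA2-proficient cells had none. Because every BRCA2-deficient library had DOX and no BRCA2-proficient one did, the drug and the loss of BRCA2 cannot be told apart. Cells received control siRNA or siRNA against β-catenin (siβ-catenin, gene CTNNB1), and then either no inhibitor or the GSK3 kinase inhibitor LY2090314 (GSK3i) at 250 nM over 24 h. "Untreated" means control siRNA without GSK3i. There were 2 untreated, 3 GSK3i, 2 siβ-catenin and 3 GSK3i + siβ-catenin libraries of BRCA2-proficient cells, and 3 of each kind of BRCA2-deficient cells.

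Cyclin D binds CDK4 or CDK6 early in G1, cyclin E binds CDK2 later, and both kinases phosphorylate the RB protein, which releases E2F factors and lets genes of DNA replication be transcribed. CIP/KIP proteins bind cyclin-CDK complexes, with CDK2 complexes as their main target, while INK4 proteins bind CDK4 and CDK6 alone. GSK3 marks β-catenin for degradation, so a GSK3 inhibitor lets β-catenin accumulate and act with TCF/LEF factors on WNT target genes, of which CCND1 is a textbook example. Much control of cyclins and p27 acts on the proteins, which were not measured here.

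Values are normalised counts, that is, read counts divided by a size factor for each library, and changes are log2 fold changes ± SE from DESeq2. A gene was called, and is said to have risen or fallen, when its Benjamini-Hochberg adjusted p over all genes tested was below 0.05 and its change was beyond 0.5 on the log2 scale. Library totals ran from 18938266 to 29280122 counts, and members had from 85 to 11143 raw counts in a library. In bulk RNA, fewer cells in a given state and less RNA per cell cannot be told apart.

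The siRNA and shRNA targets were low where the labels say. CTNNB1 had 977 to 2217 normalised counts in the 11 siβ-catenin libraries and 5206 to 8669 in the other 11, and BRCA2 had 71.4 to 225.3 in BRCA2-deficient and 513.6 to 1111 in BRCA2-proficient libraries. The line's KRT8, KRT18, VIM and CDH2 were abundant (at least 1923 in every library), while PTPRC of immune cells and CDH5 of endothelium stayed at or below 3.25.

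The response to GSK3i over many genes, by contrast, went against the labels in 3 libraries. On 1979 genes that moved the same way with GSK3i in BRCA2-deficient cells with either siRNA, each library was placed on a scale from 0% (untreated mean of its BRCA2 background) to 100% (GSK3i mean). The library labelled BRCA2-proficient GSK3i + siβ-catenin replicate 2 stood at -0.8%, while replicates 1 and 3 stood at 80.2% and 82.3%. The libraries labelled BRCA2-proficient siβ-catenin, said to have no GSK3i, stood at 79.1% (replicate 2) and 30.6% (replicate 3). In BRCA2-deficient cells the siβ-catenin libraries ranged from -12.2% to 9.0% and the GSK3i + siβ-catenin libraries from 73.6% to 80.3%. The 1979 genes were chosen on these BRCA2-deficient libraries, so that separation followed from the choice and is no check. PDCD4, a gene low in every GSK3i library with control siRNA (129 to 164 and 108 to 117 in the 2 backgrounds), had 1998 normalised counts in the GSK3i + siβ-catenin library at -0.8%, 105 and 109 in its replicates, and 291 and 1056 in the siβ-catenin libraries. PDCD4 was not chosen beforehand as a label check. In BRCA2-deficient cells its mean went with GSK3i from 1694 to 113 with control siRNA and from 1546 to 147 with siβ-catenin. That is the pattern by which the 1979 genes were chosen, so PDCD4 is an example of the scale and no separate check. AXIN2, a WNT target chosen as a label check, went with the labels of the 2 siβ-catenin libraries, at 67.2 and 65.0. It had 82.4 and 72.3 in untreated BRCA2-proficient libraries and 145 and 117 in GSK3i + siβ-catenin replicates 1 and 3. The library at -0.8% had 73.1. AXIN2 is itself lower with siβ-catenin, since the BRCA2-proficient libraries with GSK3i alone had between 1027 and 1153 counts of it. No group was changed for these values. For comparisons that use BRCA2-proficient siβ-catenin libraries, calls are counted as the labels put them and no effect of a treatment is read from them. For those that use the GSK3i + siβ-catenin library at -0.8%, changes of the members are given with and without it, while shares of genes whose groups do not overlap include it.

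**Figure D1:**
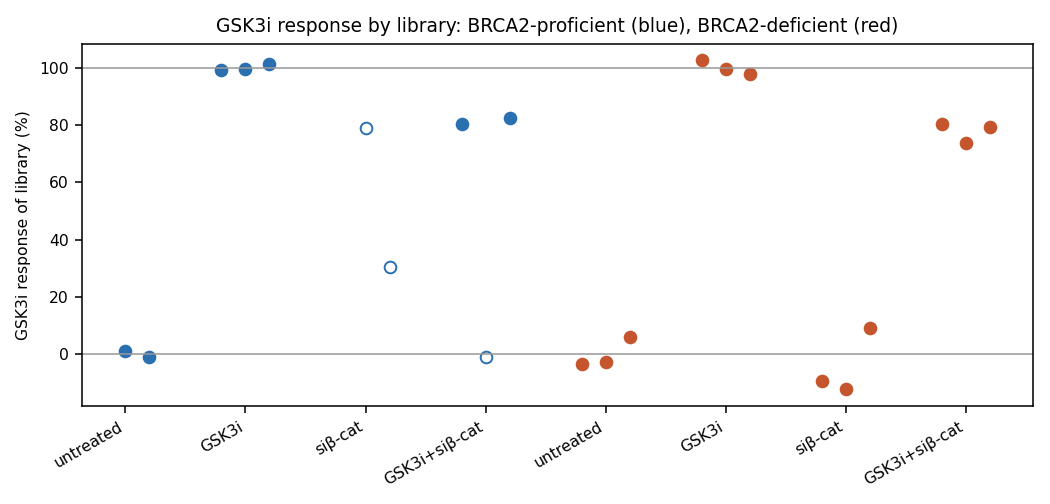
Position of each of the 22 libraries on the GSK3i scale (vertical axis, percent; 0 is the untreated mean and 100 the GSK3i mean of the same BRCA2 background), by group, with BRCA2-proficient libraries in blue and BRCA2-deficient ones in red. The 3 open circles are the libraries that went against their labels, at 79.1%, 30.6% and -0.8%.

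On GRCh37, with the GENCODE annotation lifted to it, the members are all protein-coding. CCND1 (ENSG00000110092) lies on chromosome 11 from 69455924 to 69469242 on the plus strand, CCND3 (ENSG00000112576) on chromosome 6 from 41902672 to 42018095 on the minus strand, CCNE1 (ENSG00000105173) on chromosome 19 from 30302898 to 30315219, plus, and CCNE2 (ENSG00000175305) on chromosome 8 from 95891998 to 95908906, minus. CDK2 (ENSG00000123374) lies on chromosome 12 from 56360565 to 56366573, plus, CDK4 (ENSG00000135446) on chromosome 12 from 58141510 to 58149796, minus, and CDK6 (ENSG00000105810) on chromosome 7 from 92234235 to 92465887, minus. CDKN1A (ENSG00000124762) is on chromosome 6 from 36644237 to 36655114, CDKN1B (ENSG00000111276) on chromosome 12 from 12838432 to 12875303 and CDKN2C (ENSG00000123080) on chromosome 1 from 51426417 to 51440306, all plus.

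Some members share exon sequence with a gene on the other strand. The libraries were strand-specific but the strand setting of the counting is not stated, so reads of such pairs may not be separated and those members are read as uncertain. CCNE2 is the most exposed, with 1629 bp shared with INTS8, which had a mean of 2331 raw counts against 274 for CCNE2. CDK4 shares 1369 bp with TSPAN31 (mean 399 raw counts against 4300), and CCND1 497 bp with LTO1 (256.5 against 5471). Changes of these partners are given beside calls of CCNE2, CDK4 and CCND1 made with all libraries of the groups compared. They are not given beside every call seen only under an alternative, such as with a library left out.

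Per kilobase of exon, in untreated BRCA2-proficient cells, CCND1 stood highest at 1096 normalised counts, followed by CDK4 at 1022, CDK6 at 796 and CDK2 at 530. The inhibitors CDKN2C (464) and CDKN1A (433) came next, then CCND3 (284), CDKN1B (251), CCNE1 (176) and CCNE2 (74.2). In BRCA2-deficient untreated cells CDK6 stood lower, at 298 per kilobase, below CDK2 (395), CDKN1A (422) and CCND3 (384). CCND1 made up 79.4% ± 0.94 (SD, n = 2) of the 2 D-type cyclins per kilobase in untreated BRCA2-proficient cells and 75.6% ± 3.1 (n = 3) in BRCA2-deficient cells. With GSK3i alone it was 82.6% ± 1.3 (n = 3) and 76.6% ± 2.5 (n = 3), with siβ-catenin alone 74.1% ± 1.2 (n = 2, both doubted) and 63.9% ± 6.7 (n = 3), and with GSK3i + siβ-catenin 69.0% ± 2.0 (n = 3, 1 of them doubted) and 57.0% ± 5.3 (n = 3). These shares were not tested.

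**Figure D2:**
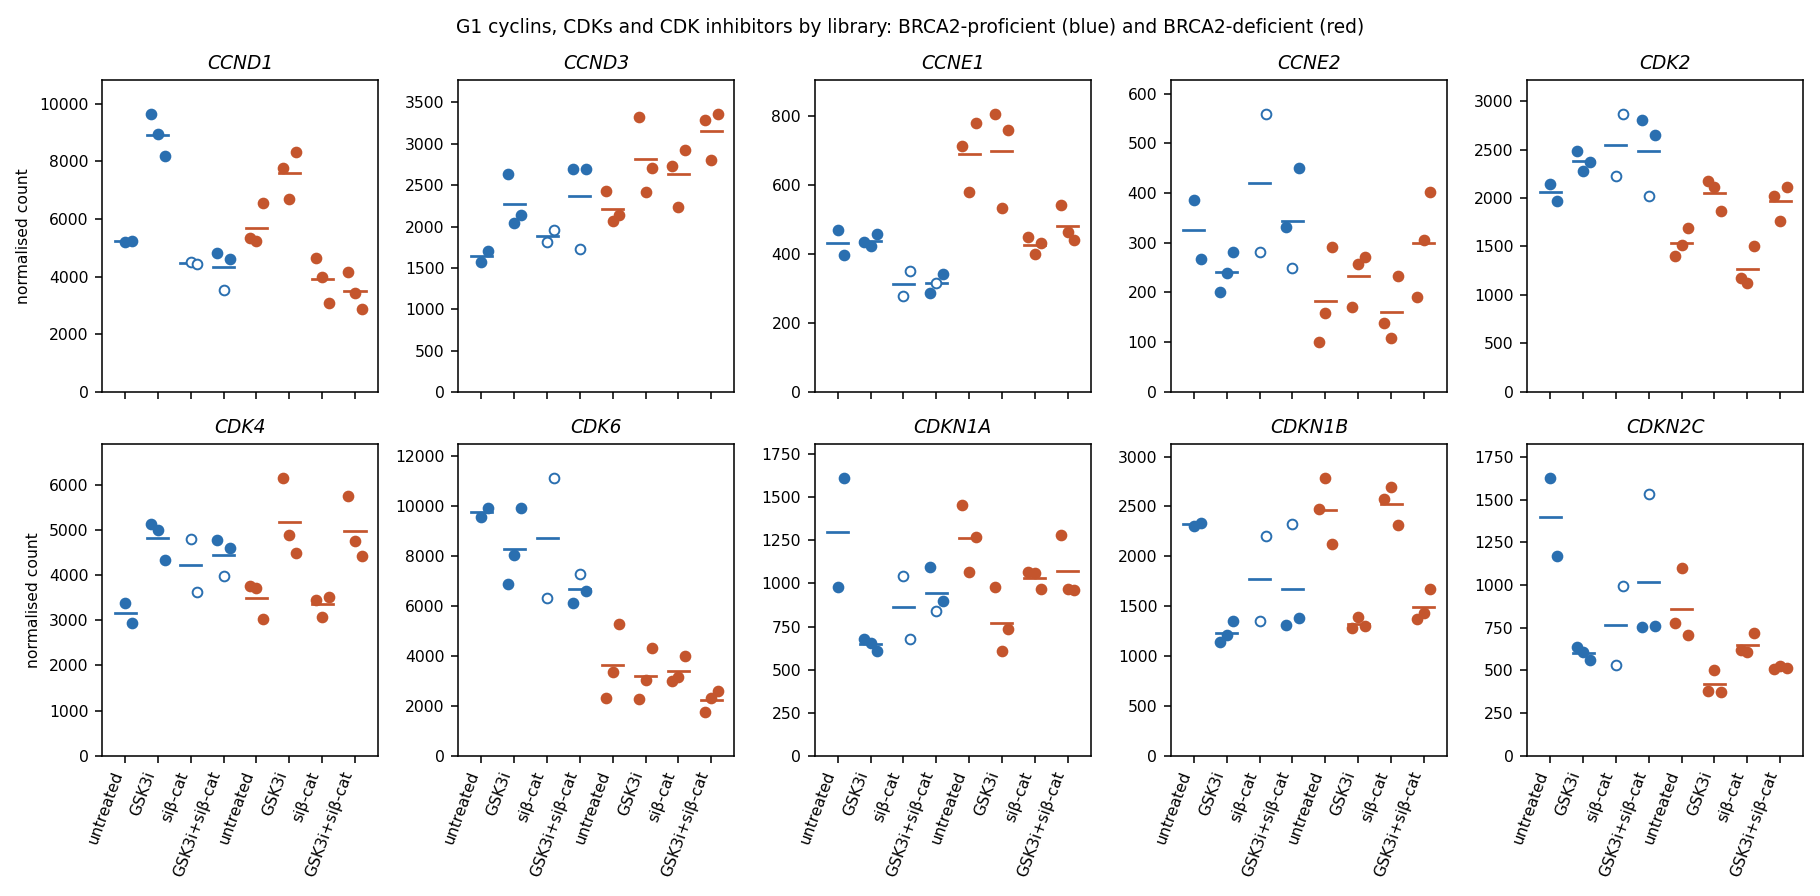
Normalised count (vertical axis, from 0) of each member in each of the 22 libraries, by group; short lines are group means, blue is BRCA2-proficient, red is BRCA2-deficient, and open circles are the 3 libraries that went against their labels. CCND1 is highest in the 6 GSK3i libraries with control siRNA (6703 to 9649), and CDK6 is lower in all 12 BRCA2-deficient libraries (1775 to 5263) than in all 10 BRCA2-proficient ones (6134 to 11136).

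Promoter windows from RefSeq (GRCh38.p14, 250 bases before to 50 after a start site) were at hand for 7 members, 12 windows in all, and not for CCND1, CCNE2 and CDK2. The TCF/LEF letters ATCAAAG, searched on both strands, were in 2.62% of all 35116 windows and in none of the 12. The E2F letters TTCCCGC or TTGGCGC were in 9.23% of all windows and in 1 of the 12, that of CDKN2C, and the FOXO letters TGTTTAC in 3.42% and in 1 of the 12, that of CCND3. The CDKN2C stretch is shown because CDKN2C is the member with the largest fall under GSK3i with control siRNA. It is also the only one of the 7 members searched that had E2F letters. The stretch is chr1:50968565-50968688 on the plus strand, ending 18 bases before the start site, with the E2F letters in capitals, of which the first run reads on the opposite strand.
CDKN2C: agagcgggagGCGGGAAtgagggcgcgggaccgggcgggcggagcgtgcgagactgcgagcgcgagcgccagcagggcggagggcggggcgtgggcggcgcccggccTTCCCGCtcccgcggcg
These matches are letters only, and nothing was measured about binding.

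The first question was what GSK3i did to the 10 genes. In BRCA2-proficient cells with control siRNA, CCND1 and CDK4 rose and all 3 inhibitors fell, so 5 of 10 members were called, where 26.1% of 16771 genes were (11.8% higher and 14.2% lower). In BRCA2-deficient cells CDK4 rose and the same 3 inhibitors fell, 4 of 10, where 25.4% of 16863 genes were called (11.6% higher and 13.8% lower). In BRCA2-deficient cells with siβ-catenin, CCNE2, CDK2 and CDK4 rose and CDK6 and CDKN1B fell, 5 of 10, where 20.1% of 17610 genes were called (8.56% higher and 11.5% lower). CDK4 and CDKN1B were called in the same direction in all 3 settings. The share of all genes called alike in all 3 was not computed, so this is not read as particular to these 2 members. In the 2 BRCA2-deficient settings the 1979 genes of the GSK3i scale were called the same way. Groups did not overlap for 7, 6 and 5 of the 10 members, where 61.4%, 43.0% and 40.4% of all genes had groups that did not. The median change over the members was -0.12, 0.18 and 0.12 in the 3 settings, and over all genes tested -0.0021, 0.025 and 0.013.

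**Figure D3:**
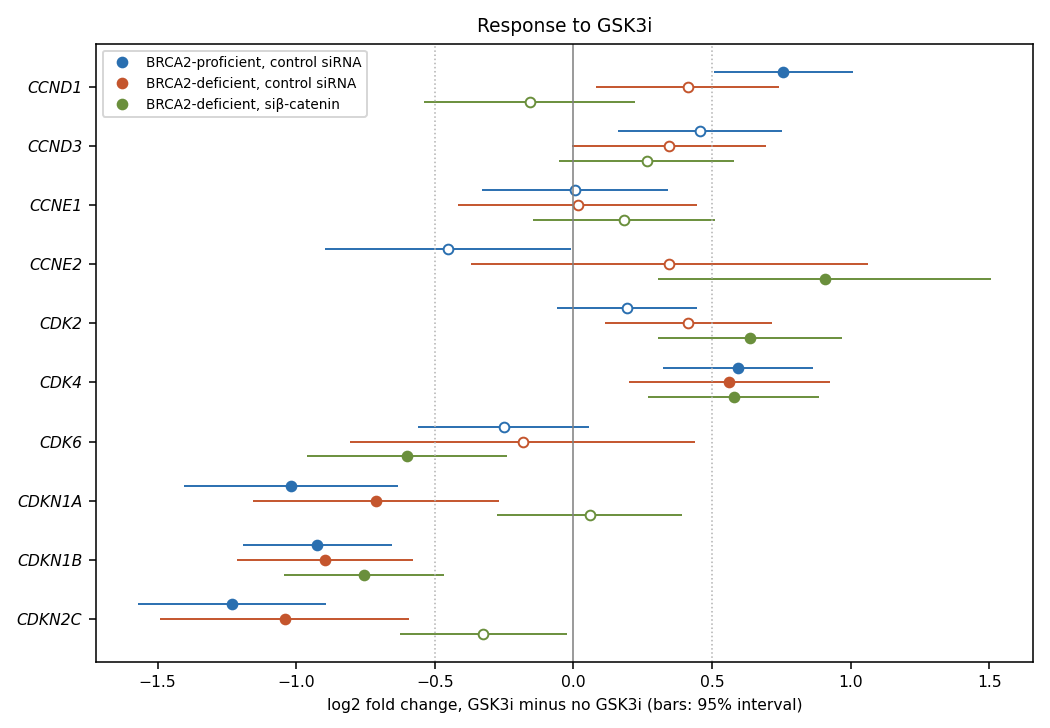
Log2 fold change with GSK3i for each member (horizontal axis, GSK3i minus no GSK3i) with its 95% interval, in BRCA2-proficient cells with control siRNA (blue), BRCA2-deficient cells with control siRNA (red) and BRCA2-deficient cells with siβ-catenin (green). Filled points were called and dotted lines mark 0.5 in either direction. CDK4 lies between 0.56 and 0.59 in all 3 and CDKN1B between -0.92 and -0.76, and CDKN1A and CDKN2C are filled in both control siRNA settings.

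CCND1, whose protein activates CDK4 and CDK6, had 5209 and 5231 normalised counts in the untreated BRCA2-proficient libraries and 9649, 8927 and 8177 with GSK3i. The groups lay far apart, and CCND1 rose by 0.76 ± 0.13 (adjusted p = 5.04e-08), that is 1.69-fold. In BRCA2-deficient cells it had 5329, 5227 and 6546 without and 7753, 6703 and 8320 with GSK3i. These groups did not overlap either, but the change of 0.41 ± 0.17 (adjusted p = 0.0509) was not called, and without BRCA2-deficient untreated replicate 3, its highest untreated library, it was (0.52, adjusted p = 0.0154). LTO1, the gene opposite CCND1, changed by 0.52 ± 0.20 (adjusted p = 0.0321) and 0.29 ± 0.22 (adjusted p = 0.337). With siβ-catenin, BRCA2-deficient cells had 4637, 3998 and 3100 counts of CCND1 without and 4154, 3430 and 2883 with GSK3i, which overlap, with a change of -0.16 ± 0.19 (adjusted p = 0.61).

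CCND3, the other D-type cyclin here, was not called with GSK3i. Its changes were 0.46 ± 0.15 (adjusted p = 0.0101, under the size asked for) in BRCA2-proficient cells, 0.34 ± 0.18 (adjusted p = 0.138) in BRCA2-deficient cells and 0.26 ± 0.16 (adjusted p = 0.235) in the latter with siβ-catenin. In BRCA2-proficient cells it was called without GSK3i replicate 2 (0.54) or replicate 3 (0.52).

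CCNE1, which drives CDK2, stood nearly level. The untreated BRCA2-proficient libraries had 467.9 and 396.9 and those with GSK3i 433.3, 423.3 and 457.8, a change of 0.01 ± 0.17 (95% interval -0.33 to 0.34). With BRCA2 depleted it was 712.8, 580.5 and 779.8 without and 806.5, 534.1 and 758.1 with GSK3i, a change of 0.02 ± 0.22 (95% interval -0.42 to 0.45). Both pairs of groups overlap, and a change of 0.5 either way lies outside both intervals. With siβ-catenin the change was 0.18 ± 0.17 (adjusted p = 0.47).

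CCNE2 had changes of either sign by setting, 1 of them called, and its mean count was the lowest of the 10 in every group compared here. With control siRNA its change was -0.45 ± 0.23 (adjusted p = 0.112) without BRCA2 depletion and 0.35 ± 0.37 (adjusted p = 0.527) with it. In BRCA2-deficient cells with siβ-catenin it had 139.5, 107.9 and 233.8 counts without and 191.1, 306.3 and 402.9 with GSK3i. These groups overlap although the change of 0.91 ± 0.31 (adjusted p = 0.0172) was called, and the call was lost in edgeR (adjusted p = 0.0696), in 1 model over all groups (adjusted p = 0.0564) and without siβ-catenin replicate 1 (0.81) or 2 (0.69) or GSK3i + siβ-catenin replicate 3 (0.64). The opposite-strand gene INTS8, with many more reads, changed by 0.30 ± 0.14 (adjusted p = 0.104) in the same comparison.

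Of the kinases, CDK4, the partner of D-type cyclins, rose by similar amounts in the 3 settings. It had 3382 and 2941 counts in untreated and 5139, 4988 and 4330 in GSK3i-treated BRCA2-proficient libraries, with no overlap and a change of 0.59 ± 0.14 (adjusted p = 1.41e-04). After BRCA2 depletion it had 3764, 3705 and 3031 without and 6155, 4893 and 4482 with GSK3i (0.56 ± 0.18, adjusted p = 0.0112), and with siβ-catenin 3458, 3071 and 3520 without and 5748, 4758 and 4426 with it (0.58 ± 0.16, adjusted p = 0.00225). No pair of groups overlapped. The call rests near the limit of 0.5: it was lost in BRCA2-proficient cells without untreated replicate 3 (0.50, adjusted p = 0.0514), in BRCA2-deficient cells without untreated replicate 2 (0.60, adjusted p = 0.0535) or 3 (0.47) or GSK3i replicate 1 (0.42), and with siβ-catenin without GSK3i + siβ-catenin replicate 1 (0.45). TSPAN31, which shares exon sequence with CDK4 on the other strand, fell with control siRNA, the opposite direction to CDK4, with changes of -1.11 ± 0.21 and -1.52 ± 0.19 (adjusted p = 8.63e-07 and 3.94e-13). With siβ-catenin in BRCA2-deficient cells the change of TSPAN31 was -0.40 ± 0.20 (adjusted p = 0.147).

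CDK2, the partner of cyclin E, rose in BRCA2-deficient cells with siβ-catenin, from 1171, 1124 and 1509 to 2024, 1759 and 2116 counts (0.64 ± 0.17, adjusted p = 0.00166), and the groups did not overlap. With control siRNA its changes were 0.41 ± 0.15 (adjusted p = 0.0281, under the size asked for) in BRCA2-deficient and 0.19 ± 0.13 (adjusted p = 0.25) in BRCA2-proficient cells. CDK6, the other partner of D-type cyclins, fell in the same setting, from 2986, 3167 and 4008 to 1775, 2299 and 2614 (-0.60 ± 0.18, adjusted p = 0.00774), again without overlap. That call was lost in 1 model over all groups (adjusted p = 0.0919) and without siβ-catenin replicate 3 (-0.46) or GSK3i + siβ-catenin replicate 1 (-0.47). With control siRNA CDK6 changed by -0.25 ± 0.16 (adjusted p = 0.214) and -0.18 ± 0.32 (adjusted p = 0.723).

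CDKN1B, the inhibitor p27, fell in all 3 settings. In BRCA2-proficient cells it went from 2308 and 2331 to 1144, 1212 and 1352 counts, and in BRCA2-deficient cells from 2477, 2789 and 2126 to 1281, 1394 and 1302. With siβ-catenin in BRCA2-deficient cells it went from 2577, 2698 and 2311 to 1371, 1437 and 1668. In each setting every GSK3i library lay under every library without it. The changes were -0.92 ± 0.14 (adjusted p = 4.02e-10), -0.90 ± 0.16 (adjusted p = 6.66e-07) and -0.76 ± 0.15 (adjusted p = 8.61e-06), and it was called under every alternative tried for these 3 comparisons.

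CDKN1A, the inhibitor p21, fell with control siRNA. It had 979.8 and 1614 counts in untreated and 677.8, 655.4 and 608.9 in GSK3i-treated BRCA2-proficient libraries, which do not overlap, and fell by 1.02 ± 0.20 (adjusted p = 3.09e-06). The size moved with the untreated library left out: the change was -0.61 (adjusted p = 0.0328) without replicate 3 and -1.33 without replicate 2, called in both. In BRCA2-deficient cells it had 1457, 1068 and 1270 without and 980.6, 605.7 and 734.0 with GSK3i, again without overlap, and fell by 0.71 ± 0.23 (adjusted p = 0.00863). The second call was lost without untreated replicate 1 (-0.60, adjusted p = 0.0603), GSK3i replicate 2 (-0.55, adjusted p = 0.1) or GSK3i replicate 3 (-0.67, adjusted p = 0.0595). With siβ-catenin, BRCA2-deficient cells had 1068, 1063 and 968.9 without and 1281, 969.3 and 961.8 with GSK3i. These groups overlap, with a change of 0.06 ± 0.17 (95% interval -0.28 to 0.39).

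CDKN2C, the INK4 inhibitor p18, had the largest fall of the 10 with control siRNA in both backgrounds. It had 1629 and 1172 counts in untreated and 634.7, 608.7 and 562.7 in GSK3i-treated BRCA2-proficient libraries, and fell by 1.23 ± 0.17 (adjusted p = 3.18e-11), that is 2.35-fold. BRCA2-deficient cells had 780.7, 1097 and 710.2 without and 382.6, 503.1 and 371.9 with GSK3i, and fell by 1.04 ± 0.23 (adjusted p = 6.48e-05). Neither pair of groups overlapped, and both calls held under every alternative tried. With siβ-catenin it had 619.4, 607.6 and 717.9 without and 508.2, 526.0 and 513.7 with GSK3i, which do not overlap either, but the change of -0.33 ± 0.15 (adjusted p = 0.108) was not called.

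The next question was which of these genes changed with siβ-catenin. The paper lists 1 siRNA sequence against β-catenin, so loss of β-catenin and any other effect of that siRNA cannot be told apart. Under GSK3i, siβ-catenin lowered CCND1 in both BRCA2 backgrounds, and CDKN1A rose in BRCA2-proficient cells. That is 2 of 10 members in BRCA2-proficient cells, where of 16393 genes 5.1% passed (3.18% higher and 1.92% lower; 3 members and 4.7% of 16630 genes without the doubted library), and 1 of 10 in BRCA2-deficient cells, where 5.52% of 17025 were (2.95% higher and 2.57% lower). Without GSK3i, in BRCA2-deficient cells, CCNE1 fell, 1 of 10 where 2.03% of 17324 genes were called (1.21% higher and 0.82% lower). Groups did not overlap for 4, 2 and 2 members in these 3 comparisons, where 26.9%, 23.5% and 19.1% of all genes had groups that did not. These comparisons share their GSK3i or untreated libraries with the comparisons of GSK3i above, so opposite signs in the 2 are not separate evidence.

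**Figure D4:**
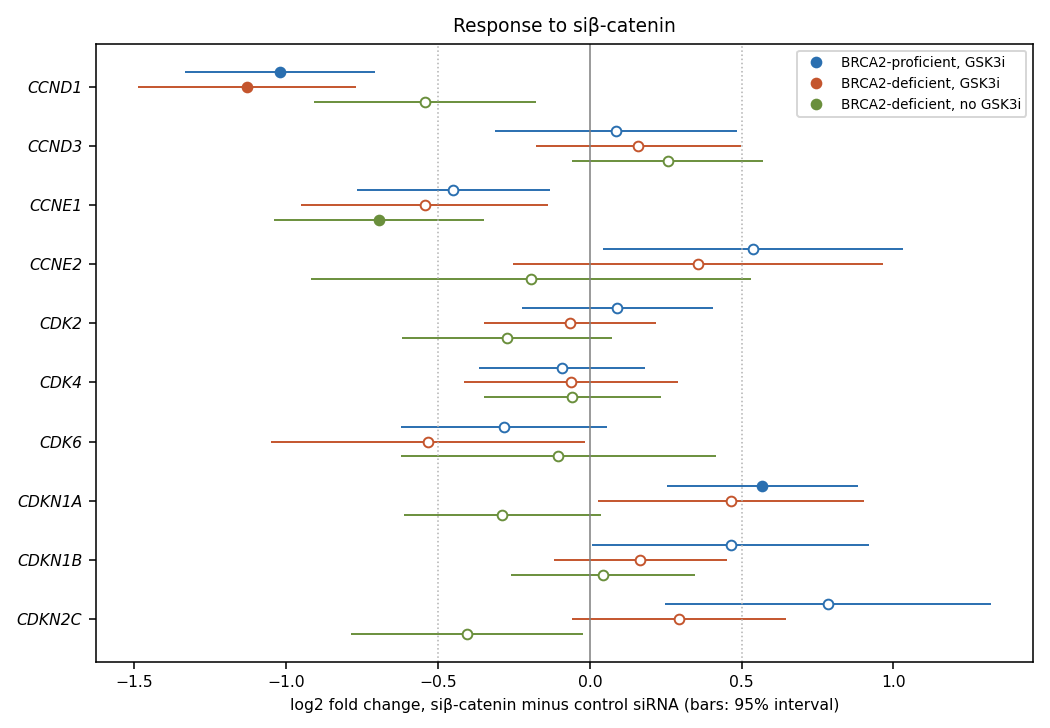
Log2 fold change with siβ-catenin for each member (horizontal axis, siβ-catenin minus control siRNA) with its 95% interval, under GSK3i in BRCA2-proficient (blue) and BRCA2-deficient cells (red) and without GSK3i in BRCA2-deficient cells (green). Filled points were called and dotted lines mark 0.5 in either direction. CCND1 lies at -1.02 and -1.13 under GSK3i and at -0.54 without it, and CCNE1 between -0.69 and -0.45.

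With GSK3i, CCND1 went from 9649, 8927 and 8177 counts with control siRNA to 4825, 3543 and 4596 with siβ-catenin in BRCA2-proficient cells, the middle value being that of the library at -0.8% on the GSK3i scale. In BRCA2-deficient cells it went from 7753, 6703 and 8320 to 4154, 3430 and 2883. The groups lay far apart in both, and the changes of CCND1 were -1.02 ± 0.16 (adjusted p = 5.34e-08) and -1.13 ± 0.18 (adjusted p = 1.60e-07), or -0.90 ± 0.12 (adjusted p = 2.32e-11) for BRCA2-proficient cells without the doubted library. Both calls held under every alternative tried. LTO1 changed by -0.38 ± 0.18 (adjusted p = 0.225) and -0.21 ± 0.17 (adjusted p = 0.61). Without GSK3i in BRCA2-deficient cells the change was -0.54 ± 0.19 (adjusted p = 0.0984), and it was called with the replicate numbers as a block (-0.55 ± 0.18, adjusted p = 0.0484). CCND3 changed by 0.09 ± 0.20, 0.16 ± 0.17 and 0.26 ± 0.16 in these 3 comparisons, none called, and by 0.26 ± 0.14 in the first without the doubted library.

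CCNE1 had lower values with siβ-catenin in each comparison, but it was called in 1. Without GSK3i, BRCA2-deficient cells had 712.8, 580.5 and 779.8 counts with control siRNA and 448.8, 398.6 and 431.5 with siβ-catenin. The groups did not overlap and CCNE1 fell by 0.69 ± 0.18 (adjusted p = 0.00892), a call lost in edgeR (adjusted p = 0.151) and without siβ-catenin replicate 1 (adjusted p = 0.107) or 2 (adjusted p = 0.088). Under GSK3i the changes were -0.54 ± 0.21 (adjusted p = 0.0938) in BRCA2-deficient cells, called with the block (-0.53 ± 0.14, adjusted p = 0.00117). BRCA2-proficient cells under GSK3i had a change of -0.45 ± 0.16 (adjusted p = 0.0739), or -0.46 ± 0.17 (adjusted p = 0.0742) without the doubted library. CCNE2 changed by 0.54 ± 0.25, 0.36 ± 0.31 and -0.19 ± 0.37, not called, but it was called in BRCA2-proficient cells without the doubted library (0.72 ± 0.22, adjusted p = 0.0185).

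Among the kinases, none was called in these comparisons. CDK4 changed by -0.09 ± 0.14, -0.06 ± 0.18 and -0.06 ± 0.15, and CDK2 by 0.09 ± 0.16, -0.07 ± 0.14 and -0.27 ± 0.18. Without the doubted library the first values were -0.02 ± 0.12 for CDK4 and 0.21 ± 0.12 for CDK2. CDK6 changed by -0.28 ± 0.17 in BRCA2-proficient cells under GSK3i, or -0.36 ± 0.16 (adjusted p = 0.204) without that library. CDK6 had 2274, 3049 and 4307 counts with GSK3i and 1775, 2299 and 2614 with siβ-catenin added in BRCA2-deficient cells. The groups overlap and the change was -0.53 ± 0.26 (adjusted p = 0.253), but within each replicate number the siβ-catenin library was the lower one, and CDK6 was called with the block (-0.50 ± 0.10, adjusted p = 4.72e-06).

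CDKN1A under GSK3i had 677.8, 655.4 and 608.9 counts with control siRNA and 1093, 841.1 and 897.4 with siβ-catenin in BRCA2-proficient cells. The groups did not overlap and CDKN1A rose by 0.57 ± 0.16 (adjusted p = 0.0127), or by 0.64 ± 0.15 (adjusted p = 0.00103) without the doubted library. The call was lost in edgeR (adjusted p = 0.105), in 1 model over all groups (adjusted p = 0.0904) and without GSK3i replicate 1 (adjusted p = 0.0502), 2 (0.154) or 3 (0.124) or GSK3i + siβ-catenin replicate 1 (0.125). In BRCA2-deficient cells it had 980.6, 605.7 and 734.0 with control siRNA and 1281, 969.3 and 961.8 with siβ-catenin, which overlap. The change was 0.47 ± 0.22 (adjusted p = 0.235), and in the block 0.48 ± 0.11 (adjusted p = 2.52e-04), still under the size asked for, but it was called without GSK3i replicate 1 (0.67, adjusted p = 0.0161). Without GSK3i it was -0.29 ± 0.17 (adjusted p = 0.469).

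CDKN1B and CDKN2C were not called with siβ-catenin. CDKN2C in BRCA2-proficient cells under GSK3i depended on the doubted library, with 753.3, 1532 and 762.7 counts against 634.7, 608.7 and 562.7 with control siRNA. The change was 0.78 ± 0.27 (adjusted p = 0.0604), 0.70 ± 0.21 and called with the block (adjusted p = 0.0223), 0.76 and called in 1 model over all groups (adjusted p = 0.044), and 0.35 ± 0.14 (adjusted p = 0.12) without that library. CDKN1B likewise changed by 0.46 ± 0.23 with it and 0.14 ± 0.14 without it. In BRCA2-deficient cells under GSK3i the changes were 0.29 ± 0.18 for CDKN2C and 0.17 ± 0.15 for CDKN1B, and without GSK3i -0.40 ± 0.20 and 0.04 ± 0.15.

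The last question was how the members differed between BRCA2-deficient and BRCA2-proficient cells. CDK6 and CDKN2C were lower and CCNE1 was higher in BRCA2-deficient cells, untreated, with GSK3i and with GSK3i + siβ-catenin, 3 of 10 members each time. Of all genes, 6.91% of 17157 (2.77% higher, 4.14% lower), 6.81% of 16336 (3.76% higher, 3.05% lower) and 7.74% of 17046 (3.38% higher, 4.36% lower) were called in these 3 comparisons. Groups did not overlap for 5, 4 and 4 members, where 40.0%, 27.4% and 26.0% of all genes had groups that did not. Their libraries do not repeat, but those with GSK3i + siβ-catenin include the doubted library, without which the same 3 members and 9.18% of 17455 genes were called.

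**Figure D5:**
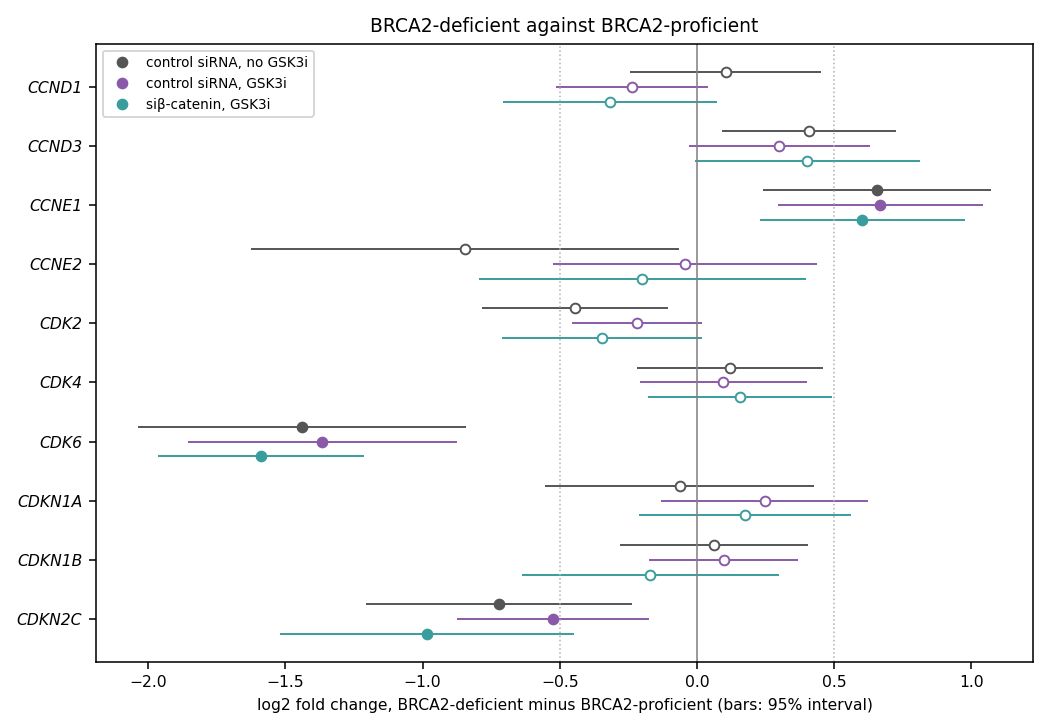
Log2 fold change of BRCA2-deficient against BRCA2-proficient cells for each member (horizontal axis) with its 95% interval, untreated (grey), with GSK3i (purple) and with GSK3i + siβ-catenin (teal). Filled points were called and dotted lines mark 0.5 in either direction. CDK6 lies between -1.59 and -1.37, CCNE1 between 0.60 and 0.67 and CDKN2C between -0.98 and -0.52.

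CDK6 had the largest difference. Untreated BRCA2-proficient libraries had 9579 and 9912 counts, and BRCA2-deficient ones 2317, 3346 and 5263. With GSK3i the values were 6876, 8028 and 9913 against 2274, 3049 and 4307, and with GSK3i + siβ-catenin 6134, 7295 and 6613 against 1775, 2299 and 2614. No pair of groups overlapped, and CDK6 was lower by -1.44 ± 0.31 (adjusted p = 1.73e-04), -1.37 ± 0.25 (adjusted p = 4.56e-06) and -1.59 ± 0.19 (adjusted p = 1.32e-13), or -1.53 ± 0.19 (adjusted p = 9.72e-13) without the doubted library. It was called under every alternative tried for these comparisons.

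CCNE1 was higher in BRCA2-deficient cells, with 712.8, 580.5 and 779.8 counts against 467.9 and 396.9 untreated and 806.5, 534.1 and 758.1 against 433.3, 423.3 and 457.8 with GSK3i. With GSK3i + siβ-catenin it had 542.2, 462.5 and 439.8 against 288.0, 316.6 and 341.3. None of these groups overlapped. The differences were 0.65 ± 0.21 (adjusted p = 0.0302), 0.67 ± 0.19 (adjusted p = 0.00899) and 0.60 ± 0.19 (adjusted p = 0.0227), and 0.60 ± 0.20 (adjusted p = 0.0265) without the doubted library. All 3 calls were lost in edgeR (adjusted p = 0.11, 0.0597 and 0.0987), the untreated one also with the block (0.0843). Leaving out 1 library lost the untreated call 4 times of 5 (either BRCA2-proficient library, or BRCA2-deficient replicate 2 or 3), the call with GSK3i 4 times of 6 (any BRCA2-proficient library or BRCA2-deficient replicate 3), and the call with both treatments in each case but that of the doubted library, with values from 0.51 to 0.77.

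CDKN2C was lower in BRCA2-deficient cells, with 780.7, 1097 and 710.2 counts against 1629 and 1172 untreated, 382.6, 503.1 and 371.9 against 634.7, 608.7 and 562.7 with GSK3i, and 508.2, 526.0 and 513.7 against 753.3, 1532 and 762.7 with both. Again no groups overlapped. The differences were -0.72 ± 0.25 (adjusted p = 0.0435), -0.52 ± 0.18 (adjusted p = 0.0402) and -0.98 ± 0.27 (adjusted p = 0.00721), and the third was -0.57 ± 0.16 (adjusted p = 0.00759) without the doubted library. In edgeR none of the 3 was called (adjusted p = 0.122, 0.108 and 0.0842), and in 1 model over all groups the untreated call (adjusted p = 0.122) and that with GSK3i (adjusted p = 0.239) were lost. Leaving out 1 library lost the untreated call for either BRCA2-proficient library or BRCA2-deficient replicate 1, the call with GSK3i for each library but BRCA2-deficient replicate 2, and the call with both for BRCA2-deficient replicate 2 or 3, with values from -0.997 to -0.445.

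The other 7 members were not called between the BRCA2 backgrounds in these 3 comparisons. CDKN1A differed by -0.06 ± 0.25 untreated, 0.25 ± 0.19 with GSK3i and 0.18 ± 0.20 with both, and CDKN1B by 0.06 ± 0.18, 0.10 ± 0.14 and -0.17 ± 0.24. CCND1 differed by 0.10 ± 0.18, -0.24 ± 0.14 and -0.32 ± 0.20, CCND3 by 0.41 ± 0.16, 0.30 ± 0.17 and 0.40 ± 0.21, and CDK4 by 0.12 ± 0.17, 0.10 ± 0.16 and 0.16 ± 0.17. CDK2 differed by -0.44 ± 0.17, -0.22 ± 0.12 and -0.35 ± 0.19, and CCNE2 by -0.85 ± 0.40, -0.04 ± 0.25 and -0.20 ± 0.30. Untreated CDK2 (-0.53) and CCNE2 (-1.36) were called when BRCA2-deficient replicate 3 was left out. The values with both treatments include the doubted library, and none was called without it, but the sign of CDKN1B turned, to 0.14 ± 0.16. The others were then 0.09 ± 0.20 for CDKN1A, -0.45 ± 0.18 for CCND1, 0.21 ± 0.16 for CCND3, 0.07 ± 0.16 for CDK4 and -0.39 ± 0.30 for CCNE2. CDK2 had -0.48 ± 0.16 (adjusted p = 0.0236), under the size asked for.

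Whether the responses themselves differed between backgrounds was tested as an interaction. For GSK3i by BRCA2 status none of the 10 members was called, where 0.00543% of 18409 genes were (1 gene, lower, and 417 at an unadjusted p below 0.05). The response in BRCA2-deficient minus that in BRCA2-proficient cells was -0.36 ± 0.25 for CCND1 (95% interval -0.86 to 0.13, adjusted p = 1.0) and 0.29 ± 0.32 for CDKN1A (95% interval -0.34 to 0.92, adjusted p = 1.0). The rise of CCND1 was called in 1 background alone, but a difference between them was not shown. For siβ-catenin by BRCA2 status under GSK3i none of 10 members and 0.0% of 18409 genes were called by DESeq2 (339 at an unadjusted p below 0.05, and none by edgeR), with CCND1 at -0.08 ± 0.24 and CDKN1A at -0.07 ± 0.30. Without the doubted libraries these were -0.20 ± 0.24 and -0.15 ± 0.30, and again no member was called in either interaction.

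For GSK3i by siβ-catenin in BRCA2-deficient cells, no member was called, where 0.293% of 18409 genes were (0.0543% higher and 0.239% lower). Of these 18409 genes, 862 had an unadjusted p below 0.05 in the DESeq2 test. Values are given for CCND1, CDKN1A and CDKN2C, which had the largest such values. CDKN1A had 0.77 ± 0.30 (adjusted p = 0.578), CDKN2C 0.71 ± 0.37 (adjusted p = 0.967) and CCND1 -0.58 ± 0.24 (adjusted p = 0.643). Without the 3 doubted libraries, which are of other groups but share the estimate of spread, the adjusted p-values were 0.265, 0.174 and 0.323. The 95% interval for CDKN1A, 0.17 to 1.36, and for CCND1, -1.04 to -0.11, did not include 0 before adjustment over all genes. These members were picked for the size of their values, so the intervals show no effect by themselves.

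The remaining comparisons rest on libraries labelled BRCA2-proficient siβ-catenin, which stood at 79.1% and 30.6% on the GSK3i scale, so no direction with GSK3i or siβ-catenin is drawn from them. Against untreated cells none of 10 members was called, where 2.97% of 17654 genes were, and without siβ-catenin replicate 3 there were 4 (CDK4, CDK6, CDKN1B and CDKN2C). That fit has 3 libraries, so the filter on low counts removed none of the 37908 genes, of which 2017 (5.32%) were called. Against the libraries labelled GSK3i + siβ-catenin none of 10 was called, where 0.0529% of 17010 genes were (0.047% higher and 0.00588% lower). Between libraries labelled BRCA2-deficient and BRCA2-proficient siβ-catenin, the differences of CCNE2 (-1.41 ± 0.38), CDK2 (-1.03 ± 0.21) and CDK6 (-1.39 ± 0.26) were called, 3 of 10 where 27.4% of 17813 genes were (13.6% higher and 13.8% lower). CCNE2 was not called without BRCA2-proficient siβ-catenin replicate 3 (-0.84, adjusted p = 0.0945), and INTS8 had -0.45 ± 0.16 (adjusted p = 0.0177). CDK6 had 6311 and 11136 counts there against 2986, 3167 and 4008, so its groups did not overlap here either (7 members did not, where 56.1% of all genes did not). The interaction of GSK3i with siβ-catenin in BRCA2-proficient cells, where 11.9% of 18409 genes were called (6.25% higher and 5.68% lower), called CCND1, CDKN1A and CDKN2C, and LTO1 had -0.64 ± 0.26 (adjusted p = 0.0812).

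The other regulators of the G1/S step were read from a list of 41 genes by role, all in the table. With GSK3i in BRCA2-proficient cells 6 rose and 9 fell, with a median of -0.02, and in BRCA2-deficient cells 11 rose and 6 fell, with a median of 0.24. Of all genes tested, 11.8% rose and 14.2% fell in BRCA2-proficient cells, and 11.6% rose and 13.8% fell in BRCA2-deficient cells. Of the other 4 CDK inhibitors, 3 fell in the first and 2 in the second. They were led by CDKN1C (p57), at -3.02 ± 0.50 (adjusted p = 2.79e-08) and -2.30 ± 0.45 (adjusted p = 4.92e-06). Counts of CDKN1C are not given here, and it may be a gene of low counts. With the doubted library left out, DESeq2 gave CDKN1C no adjusted p between the siRNAs in GSK3i-treated BRCA2-proficient cells (SE 0.83). It gave none between BRCA2 backgrounds with both treatments either (SE 0.75). The sizes of the CDKN1C falls are therefore read as uncertain. CDC25A, the phosphatase that activates CDK2, rose by 0.73 ± 0.15 (adjusted p = 8.77e-06) and 1.10 ± 0.18 (adjusted p = 4.18e-08), and the RB relative RBL2 (p130) fell (-1.21 ± 0.17, adjusted p = 1.45e-11, and -1.32 ± 0.30, adjusted p = 1.64e-04). Larger rises than that of CDC25A were those of E2F4 in BRCA2-proficient cells (0.79 ± 0.13, adjusted p = 1.46e-08) and of PKMYT1, a kinase acting on CDK, in BRCA2-deficient cells (1.24 ± 0.16, adjusted p = 1.83e-13). FOXO1, a factor known to act on CDKN1B, fell (-1.41 ± 0.22, adjusted p = 4.59e-09, and -1.05 ± 0.22, adjusted p = 2.90e-05), and LEF1, a partner of β-catenin, rose by 2.83 ± 0.24 (adjusted p = 1.49e-30) and 3.05 ± 0.22 (adjusted p = 8.85e-39).

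With siβ-catenin under GSK3i, 3 of 40 listed genes tested fell and none rose in BRCA2-proficient cells (median -0.14), and 6 of 41 fell and 1 rose in BRCA2-deficient cells (median -0.22). Of all genes tested, 1.92% fell and 3.18% rose in BRCA2-proficient cells, and 2.57% fell and 2.95% rose in BRCA2-deficient cells. Without the doubted library 3 of 41 fell and none rose in BRCA2-proficient cells (median -0.10), where 4.7% of all genes were called. LEF1 fell most in both, with -1.84 ± 0.23 (adjusted p = 5.74e-13; -1.71 ± 0.21 without that library) and -2.21 ± 0.27 (adjusted p = 1.27e-13). MYC (-0.75 ± 0.16, adjusted p = 1.16e-04) and CDKN2B (p15; -0.80 ± 0.18, adjusted p = 3.52e-04) fell in BRCA2-deficient cells, where CDKN2D (p19) rose by 0.68 ± 0.18 (adjusted p = 0.00621). Without GSK3i, 1 of 41 fell in BRCA2-deficient cells, the mitotic kinase CDK1 (-0.86 ± 0.21, adjusted p = 0.00673), where 0.82% of all genes fell.

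Between BRCA2 backgrounds, 11 of 41 listed genes were lower and 1 higher in untreated BRCA2-deficient cells (median -0.22), 3 and 1 with GSK3i (median -0.12), and 7 and 0 with GSK3i + siβ-catenin (median -0.16, or 7 and 0 with a median of -0.11 without the doubted library). Of all genes, 4.14% were lower and 2.77% higher untreated, 3.05% and 3.76% with GSK3i, and 4.36% and 3.38% with both treatments. Without the doubted library 9.18% of genes were called with both. SKP2, the ubiquitin ligase subunit that marks p27 for degradation, was lower in all 3, by -1.29 ± 0.24 (adjusted p = 1.20e-05), -1.28 ± 0.19 (adjusted p = 1.96e-09) and -1.62 ± 0.21 (adjusted p = 1.95e-11), the last -1.72 ± 0.21 without that library. CCNA2 (cyclin A2) was lower too, by -0.96 ± 0.25 (adjusted p = 0.00353), -0.52 ± 0.14 (adjusted p = 0.00775) and -0.96 ± 0.17 (adjusted p = 2.99e-06), the last -0.89 ± 0.17 without that library. CDKN2B was the 1 higher gene untreated (0.53 ± 0.17, adjusted p = 0.025) and with GSK3i (0.63 ± 0.17, adjusted p = 0.00488).

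Across the 22 libraries, the genes whose log2 level was most like that of CCND1 were CPOX (Pearson's r 0.96), an enzyme of haem synthesis, TMEM200A (0.94) and MPP4 (0.93), among 11898 genes compared. For CDKN1A they were the unnamed genes ENSG00000267473 (0.89) and ENSG00000260336 (0.85) and PPP1R3C (0.81), a targeting subunit of a phosphatase on glycogen. The libraries share treatments and groups, so these values describe likeness over the same 8 conditions only.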

How the data were processed

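RNA-seq of 22 H1299 libraries was deposited as unnormalised counts of reads for each Ensembl gene. The authors prepared strand-specific poly(A) libraries, mapped reads to GRCh37 by HISAT2, marked and dropped duplicates in Picard, and assigned unique alignments to genes by featureCounts (per the labels, versions 2.0.4, 1.9.2 and 1.5.0; the study's reporting summary lists other versions). Removing duplicates lowers the counts of abundant genes most. The Ensembl release and strand setting are not given in the sources used here.

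Each pair of groups was fitted on its own libraries with DESeq2 1.42.0 (R 4.3.3; median-of-ratios size factors, Wald test, no shrinkage), as the study describes. Genes were tested unless more than 3 libraries had fewer than 10 counts, a rule that is looser with fewer libraries and removes nothing with 3. Interactions were contrasts in 1 model over all 8 groups, keeping a gene if 3 or more libraries had 10 or more counts, called at adjusted p below 0.05. Alternatives were edgeR 4.0.16 (quasi-likelihood), TMM factors, no filter, other sets of libraries, the replicate number as a block and each library left out. The scripts were tested on simulated data. The study calls its replicates independent experiments. Replicate pairs differed by more than counting noise (chi-square per gene 10.8 to 64.4, 20 pairs). Same-numbered libraries deviated together (r from 0.139 to 0.82) in 6 comparisons with 3 pairs, so numbers were read as pairing there: GSK3i in BRCA2-deficient cells with either siRNA, siβ-catenin under GSK3i in both backgrounds and without it in BRCA2-deficient cells, and BRCA2 status with GSK3i.

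The members, the list of 41 regulators and the tests were chosen with earlier results of these data known. Genes named from the list are, per comparison, up to 3 called in each direction with the largest change and no overlap between groups. Likeness used log2(normalised count + 1) of genes with a mean of at least 100. The libraries that went against their labels were left out in alternatives added after seeing the data.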

Additional observations from a re-analysis of the deposited data

Results flagged for a closer look

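As the labels put the libraries, the contrast of GSK3i by siβ-catenin in BRCA2-proficient cells was called for 3 members by DESeq2's test of the interaction: CCND1 by -0.82 ± 0.27 (adjusted p = 0.0223), CDKN1A by 1.14 ± 0.34 (adjusted p = 0.0121) and CDKN2C by 1.63 ± 0.41 (adjusted p = 0.0025). All 3 rest on both libraries labelled BRCA2-proficient siβ-catenin and on GSK3i + siβ-catenin replicate 2, which went against their labels, so the contrast cannot be computed without them. CCND1 lost its call when BRCA2-proficient untreated replicate 2 or 3, GSK3i replicate 1, siβ-catenin replicate 2 or GSK3i + siβ-catenin replicate 2 was left out (-0.82 to -0.69), CDKN1A without untreated replicate 3 (0.73) or siβ-catenin replicate 3 (0.86), and CDKN2C without siβ-catenin replicate 2 (1.25).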

How the results depend on the processing

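No called value of a member changed sign under any alternative, and 114 values called in neither fit did. Under the alternatives 66 member values lost a call, 36 gained one and 1848 stayed called or stayed uncalled, the 114 that changed sign among them. Members called moved by over 1.5 times as follows. In BRCA2-proficient cells with GSK3i, for siβ-catenin, 2 members became 1 in edgeR and 1 to 3 with a library left out. For the same in BRCA2-deficient cells, 1 became 3 with the block, 2 in 1 model over all groups and 1 to 3 with a library left out. For siβ-catenin without GSK3i in BRCA2-deficient cells, 1 became 0 in edgeR, 2 with the block, 2 in 1 model and 0 to 2 with a library left out. For GSK3i with siβ-catenin in BRCA2-deficient cells, 5 became 3 in 1 model and 3 to 5 with a library left out. For BRCA2 status, 3 became 1 in edgeR untreated, with GSK3i and with both treatments, and with a library left out 1 to 4, 1 to 3 and 1 to 3. For siβ-catenin libraries in BRCA2-proficient cells, 0 became 1 with crossed replicate numbers (added after seeing the data) and 0 to 4 with a library left out, 3 became 3 to 5 against BRCA2-deficient cells, and the interaction in BRCA2-proficient cells went from 3 to 5 with the block and 1 to 4 with a library left out. Over all genes, edgeR called 183 in place of 836 and 267 in place of 939 (siβ-catenin under GSK3i, BRCA2-proficient and BRCA2-deficient), 326 for 1185, 645 for 1112 and 483 for 1319 (BRCA2 status, in the order above), 0 for 351 (siβ-catenin without GSK3i, BRCA2-deficient; 527 with the block), and 21 for 54 in the interaction of GSK3i with siβ-catenin in BRCA2-deficient cells (138 with the block, 89 with 4 groups alone, 159 without the 3 doubted libraries). Where BRCA2-proficient siβ-catenin libraries enter, 524 became 1 in edgeR, 189 with the block, 255 with crossed numbers and 274 in 1 model; 9 became 0, 3 with the block and 1 in 1 model; 4888 became 2020 with the block; and 2196 became 3568 with the block and 1308 with 4 groups. The GSK3i by BRCA2 interaction called 1 gene, 0 in edgeR, 2 without the filter, 6 with 4 groups and 2 without the doubted libraries, and that of siβ-catenin by BRCA2 0, 1, 1 and 5 (no filter, 4 groups, doubted libraries). With a library left out, GSK3i called 2825 to 4266 genes for 4372 in BRCA2-proficient cells, 3066 to 4370 in BRCA2-deficient cells and 2217 to 3575 for 3534 in the latter with siβ-catenin. For siβ-catenin under GSK3i the ranges were 292 to 855 and 366 to 1037, and without GSK3i in BRCA2-deficient cells 84 to 536. BRCA2 status called 183 to 2147, 608 to 1302 and 748 to 1603. With BRCA2-proficient siβ-catenin libraries the ranges were 21 to 2017 (no gene removed by the filter), 3 to 28 and 2879 to 4912. The interactions gave 0 to 3, 0 to 1, 560 to 3048 and 29 to 63 (GSK3i by BRCA2, siβ-catenin by BRCA2, then GSK3i by siβ-catenin without and with BRCA2 depletion). The replicate block changed no member's call beyond those named in the report for paired comparisons, and CDK4 and CDKN1B were gained in the BRCA2-proficient interaction (adjusted p = 0.0331 and 0.0412), where numbers were not shown to pair libraries.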
